A study of Drosophila melanogaster with 32 samples.

Results

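The 4 populations of Drosophila melanogaster that had evolved under enforced monogamy were compared with each other through the RNA of their mated females. Each was a separate laboratory population, numbered M1, M2, M3 and M4. All 16 arrays of monogamous females were used, of 32 arrays in the series, and they were grouped by the female population in the sample title, which gave 4 arrays per population. The design asks of these arrays how far populations kept under 1 mating regime had come to differ in gene expression.

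All populations came from LHM, an outbred laboratory stock, and had been under their mating regime for 46 generations. Under monogamy a female mated once per generation; the other 4 populations of the series, P1 to P4, stayed on the standard promiscuous protocol. Females of each monogamous population were crossed either to males of their own population or to males of the promiscuous population with the same number. Whole mated females were frozen 6 h after mating. Each cross had 2 biological replicate arrays, 1 in each of 2 batches named in the labels. The 4 arrays of a population therefore share that population and its 2 crosses, and the p-values below measure the spread between arrays of these populations and say nothing of other populations. M1 females met only males numbered 1, M2 females only males numbered 2 and so on, so female population and mate population number cannot be told apart.

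Populations that are kept apart come to differ through selection and through random drift of allele frequencies. Genes for the detoxification of plant and man-made chemicals, for digestion and for defence belong to large families whose members are often duplicated side by side and vary in expression among fly strains. Mating itself alters female physiology through sperm and seminal proteins: the seminal sex peptide acts on its receptor SPR and raises egg laying and lowers receptivity.

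Values were log2 intensities, on which a difference of 1 is a doubling. Over the 16 arrays the pairwise correlation of all probe sets lay between 0.9922 and 0.998, and array medians lay between 5.412 and 5.464. The best match of 16 of 16 arrays was another array of its own population. The median correlation was 0.9973 for arrays of 1 population in 1 batch, 0.9968 for arrays of 1 population in different batches and 0.9956 for arrays of different populations in 1 batch. As averages over the arrays, the probe sets had a lower quartile of 3.83, a median of 5.43 and an upper quartile of 8.69. Markers of testis and of male accessory gland were low in all 4 populations, with array means of 3.73 to 4.01, and none of the 29 sets passed limma's test among populations (0 at an unadjusted p under 0.05). The highest of them were bol, a testis gene, with 1 of its 3 sets at 7.21, and Acp95EF of the accessory gland, at 7.02, both above the median. Yolk protein Yp1 was high, at 14.72, in samples labelled as adult females.

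The 4 populations differed at 2127 of 18769 probe sets (11.3%) at an adjusted p under 0.05, in limma's moderated F test with batch and male regime as terms. At an unadjusted p under 0.05 there were 4580 probe sets, where 938 are the number that the threshold itself gives. The called sets represented 1787 named genes. Most differences were small. The median gap between the highest and the lowest population mean was 0.427 among called sets and 0.152 among all sets, beside a median residual SD of 0.113. The gap exceeded 1 at 242 called sets, which are 11.4% of the called sets, exceeded 2 at 49 and exceeded 4 at 3.

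No population was the sole source of the calls. For each called set the outlying population was taken as the one farthest from the mean of the other 3. M1 was outlying at 581 sets (276 higher, 305 lower), M2 at 467 (233 higher, 234 lower), M3 at 509 (213 higher, 296 lower) and M4 at 570 (294 higher, 276 lower). Separation was counted over all called sets, whichever population was outlying. In each batch both arrays of M1, M2, M3 and M4 lay beyond all 6 arrays of the other populations at 355, 269, 319 and 361 called sets. Over all 18769 tested sets, called or not, the counts were 442 (2.35%), 376 (2%), 475 (2.53%) and 457 (2.43%). A set could count for several populations, as Cyp12d1-d did for M1 and M3.

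**Figure D1:**
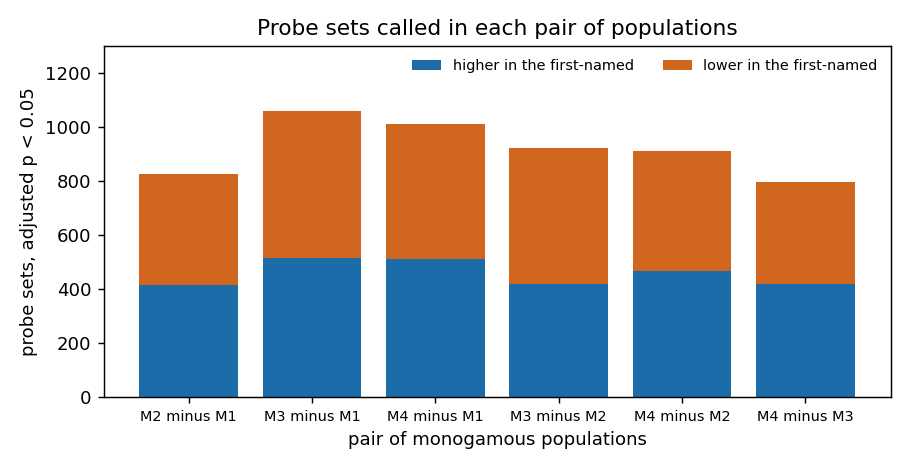
Number of probe sets past an adjusted p of 0.05 (y axis) for each pair of monogamous populations (x axis), split into those higher and those lower in the first-named population. The 6 bars lie between 798 and 1058 probe sets, and each is divided nearly evenly between the directions.

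Every pair of populations differed at 798 or more probe sets, and the calls went in both directions. M3 minus M1 had the most, 1058 of 18769 sets (5.64%), with 514 higher in M3 (2.74%) and 544 lower (2.9%). M4 minus M1 had 1010 (5.38%), with 513 higher in M4 (2.73%) and 497 lower (2.65%). M3 minus M2 had 921 (4.91%), with 419 higher in M3 (2.23%) and 502 lower (2.67%). M4 minus M2 had 910 (4.85%), with 468 higher in M4 (2.49%) and 442 lower (2.35%). M2 minus M1 had 828 (4.41%), with 414 higher in M2 (2.21%) and 414 lower (2.21%). M4 minus M3 had 798 (4.25%), with 419 higher in M4 (2.23%) and 379 lower (2.02%). The pairs share arrays, so these counts are not independent of one another. The M3 minus M2 count was the least stable: it was 602 with batch left out of the model, and it was 609 without the first M2 array from own-population males, 539 and 575 without the first or the second M2 array from promiscuous-line males, and 562 without the first M3 array from promiscuous-line males. The plot of calls by pair shows the 6 counts.

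The strongest difference was at CG6765, a gene on chromosome arm 3L. Its values in the 4 M1 arrays were 3.40, 3.20, 3.48 and 3.61, here and below in the order own-population males batch 1 and batch 2, then promiscuous-line males batch 1 and batch 2. The M2 arrays read 8.88, 8.73, 8.72 and 8.91, the M3 arrays 8.31, 8.70, 8.20 and 8.23, and the M4 arrays 8.43, 8.50, 7.99 and 7.95. All 4 M1 arrays thus lay far below all 12 others, under the lower quartile of all probe sets, with no overlap in either batch. M1 was lower than the mean of the other 3 populations by a log2 difference of -5.04 (SE 0.10), which is 32.9-fold, with a limma adjusted p of 2.15e-13. The M1 values lay at the level of male seminal genes in these females, such as Acp36DE at 3.41 and SP at 3.59, and the files give no detection call, so this difference may be a lower bound. The same holds at CG32833, CG34251, tut, CG32751, vis, Spn38F and CG42335, where the mean of at least 1 population lay under 3.83. The difference was -4.98 in batch 1 and -5.10 in batch 2. M2 and M4 also differed from each other, by -0.59 in M4 minus M2 (SE 0.13; limma adjusted p 0.01).

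A second gene low in M1 was rb (ruby, on X), which encodes a subunit of the AP-3 adaptor complex that delivers eye pigment proteins to their granules. The M1 arrays read 7.73, 8.04, 7.87 and 7.84, and the lowest of the other 12 arrays was 8.80, in M4. M1 was lower by a log2 difference of -1.29 (SE 0.05; limma adjusted p 5.79e-09), and was -1.29 and -1.30 in the separate batches. CG32834, on 2R, was low in M1 too, with array values of 6.93, 6.46, 7.05 and 6.49. Its batches differed, since batch 1 read higher in every population, and within each batch both M1 arrays lay below the other 6. The difference was -1.34 in each batch (limma adjusted p 2.29e-08). CG32833, also on 2R, was instead high in M1 at 6.05, 6.07, 6.30 and 6.05, intermediate in M4 at 5.06, 5.79, 4.87 and 5.43, and between 3.21 and 3.83 in the arrays of M2 and M3. CG34251 was high in M1 as well, at 5.25, 7.17, 6.06 and 6.65, against 3.70 to 4.80 in the others (difference 2.08, SE 0.24; limma adjusted p 0.000121), but by 1.35 in batch 1 and 2.81 in batch 2. At CG32833 the M3 minus M2 difference did not pass the test (log2 difference 0.04, SE 0.15; limma adjusted p 0.922).

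Other genes with small p-values split the populations in pairs or in steps. CG4250, on 2R, read 8.42 to 8.90 in M2 and 8.09 to 8.74 in M4, and 6.59 to 7.05 in M1 and 6.62 to 6.82 in M3. The arrays of M2 and M4 overlapped each other and lay above all arrays of M1 and M3. The M2 minus M1 difference was 1.90 (SE 0.13; limma adjusted p 1e-07), and the M4 minus M2 difference was -0.16 (SE 0.13; limma adjusted p 0.616). CG31955, on 2L, fell in steps, at 7.60, 8.01, 8.08 and 8.04 in M3, 6.83, 7.25, 7.26 and 6.93 in M1, 6.59, 6.50, 6.18 and 6.63 in M2, and 5.53, 5.63, 5.48 and 5.41 in M4. The ranges of the 4 populations did not overlap there, and all 6 pairs passed the test, with limma adjusted p-values from 1.95e-08 to 0.00771.

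M2 was set apart by CG15563 and CG3457, both higher in its females than in any other population. CG15563, on 3R, read 6.80, 6.20, 7.04 and 6.75 in M2 and between 4.64 and 5.01 in the other 12 arrays (log2 difference 1.87, SE 0.08; limma adjusted p 1.59e-08). CG3457, on X, read 8.20, 8.16, 8.12 and 8.20 in M2, and its highest value elsewhere was 6.83, in M4 (log2 difference 1.83, SE 0.10; limma adjusted p 4.22e-08). At both genes M2 lay apart from the other 3 populations. Those 3 overlapped with one another at CG15563. At CG3457 M4 overlapped with M1 and with M3, but all M3 arrays lay above all M1 arrays (M3 minus M1 0.63, SE 0.12; limma adjusted p 0.00514). The genes lowest in M2 were CG32751 (M2 3.97, 3.76, 3.64 and 3.6; difference -2.48, SE 0.26) and CG3397 (M2 5.25, 4.31, 5.53 and 4.48; difference -2.42, SE 0.19). No array of another population read under 4.88 at CG32751 or under 6.83 at CG3397, so M2 was alone at the bottom of both.

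**Figure D2:**
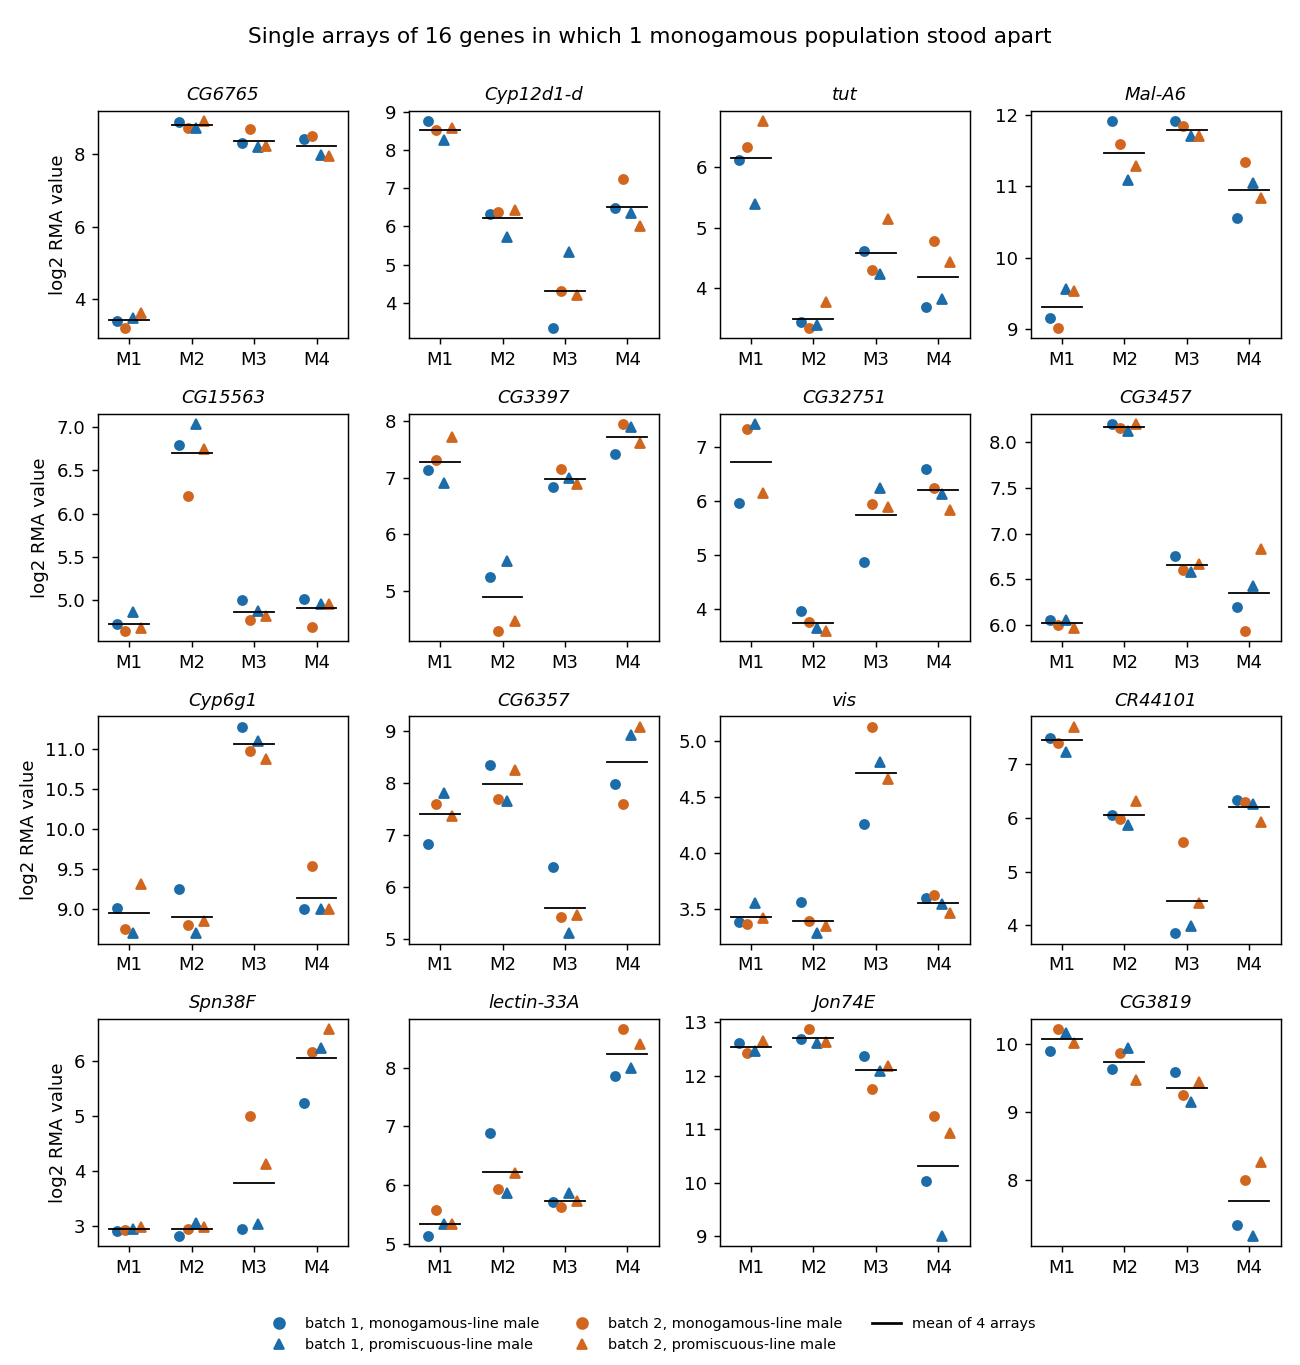
Log2 values of single arrays (y axis of each panel, with its own scale) in the populations M1 to M4 (x axis) for 16 genes, 4 for each population that stood apart (rows from M1 to M4). Colour marks the batch, the symbol marks the regime of the mate, and a line marks the mean of 4 arrays; CG6765 in M1 lies between 3.20 and 3.61 while its other 12 arrays lie between 7.95 and 8.91.

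M3 stood apart at vis (vismay, on 2R), a homeodomain gene of spermatogenesis. Its 4 M3 arrays read 4.26, 5.13, 4.81 and 4.66, and the other 12 read 3.28 to 3.62. The M3 values were low in absolute terms, below the median of all probe sets, and did not overlap with the others (log2 difference 1.25, SE 0.11; limma adjusted p 5.68e-06). The neighbouring copy achi is nearly identical, so the probe set may not tell the copies apart. CR44101, named only in the platform annotation, read 3.85, 5.55, 3.98 and 4.41 in M3 and 5.87 to 7.70 elsewhere (difference -2.12, SE 0.19). CG6357, on 2R, was lower in M3 by -2.33 (SE 0.26; limma adjusted p 5.91e-05), with M3 arrays at 6.39, 5.42, 5.11 and 5.46 and all others at 6.82 or more.

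M4 stood apart at lectin-33A, a C-type lectin gene on 2L. Its M4 arrays read 7.86, 8.65, 7.99 and 8.40. The highest of the other 12 arrays was 6.89, in M2, and M4 was higher by 2.46 (SE 0.16; limma adjusted p 2.43e-07). Gnmt, which encodes glycine N-methyltransferase, an enzyme that uses up the methyl donor S-adenosylmethionine, was lower in M4 by -1.90 (SE 0.25; limma adjusted p 0.000147), at 5.29, 5.42, 4.97 and 4.80 against 5.83 to 8.66. CG3819, on 3L, was lower by -2.03 (SE 0.15; limma adjusted p 6.76e-07), but by -2.48 in batch 1 and -1.57 in batch 2. CG42335 was higher in M4 by 1.89 (SE 0.13), while another probe set of the gene gave -0.38 and was not called (limma adjusted p 0.104).

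Detoxification genes were called often; lists are described here by counts and medians, with no test. Of 36 probe sets for glutathione transferases, which attach glutathione to reactive compounds, 27 were called (75%), with a median gap between highest and lowest population of 0.352. Of 85 cytochrome P450 sets, which oxidise foreign compounds, hormones and fatty acids, 37 were called (43.5%; median gap 0.298). Of 35 UDP-glycosyltransferase sets, which add sugars to lipophilic compounds, 13 were called (37.1%; median gap 0.27). These shares stand beside 11.3% and a median gap of 0.152 for all probe sets. The outlying population varied: among called P450 sets it was M1 at 8, M2 at 12, M3 at 8 and M4 at 9.

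Cyp6g1, a P450 known for its role in DDT resistance, was high in M3 alone. The M3 arrays read 11.28, 10.98, 11.10 and 10.88. The other 12 arrays ran from 8.70 to 9.54, without overlap, and M3 was higher by 2.06 (SE 0.12), which is 4.17-fold, with a limma adjusted p of 1e-07. The difference was 2.24 in batch 1 and 1.88 in batch 2. M1, M2 and M4 did not pass the test against one another at this gene, with limma adjusted p-values of 0.473 to 0.918 for log2 differences of -0.05 to 0.24.

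Cyp12d1-d, another P450 linked to insecticide response, had the second widest gap among the named genes, 4.24. It read 8.76, 8.52, 8.27 and 8.59 in M1, 6.32, 6.37, 5.73 and 6.43 in M2, 3.34, 4.30, 5.34 and 4.20 in M3, and 6.49, 7.24, 6.36 and 6.00 in M4. M1 lay above and M3 below all arrays of the other populations, while M2 and M4 overlapped (M4 minus M2 0.31, SE 0.32; limma adjusted p 0.699). The copy Cyp12d1-p is nearly identical, so the values may hold both. Cyp6a2, a further P450 of insecticide metabolism, was lowest in M3 at 5.87, 5.96, 6.28 and 6.10 and highest in M1 at 7.80, 7.5, 7.75 and 7.66 (M3 minus M1 -1.62, SE 0.10; limma adjusted p 7.32e-08). Cyp6w1 was high in M1, at 7.67, 7.76, 7.32 and 7.5, with M4 next at 6.67 to 7.26 (M1 difference 1.28, SE 0.12; limma adjusted p 1.36e-06).

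Among glutathione transferases, GstE14 carried the smallest p. It is known to act in the making of the moulting hormone ecdysone. The M4 arrays read 5.14, 5.15, 5.0 and 5.07, the M3 arrays 5.76, 5.98, 5.74 and 5.72, and the arrays of M1 and M2 6.19 to 6.59. The order was thus M4 lowest, M3 next, and M1 level with M2 (M2 minus M1 0.00, SE 0.07; limma adjusted p 0.997). M4 was lower by -1.09 (SE 0.06; limma adjusted p 2.09e-08). GstO3, an omega-class transferase, was high in M1 at 9.77, 10.05, 9.84 and 9.94, and the other 12 arrays read 8.08 to 9.21 (difference 1.19, SE 0.08; limma adjusted p 1e-07).

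The delta-class transferases, a cluster of neighbouring genes on 3R, did not move as one. GstD4 was highest in M1, at 5.65, 5.80, 5.78 and 6.16, and lowest in M4, at 4.64, 4.35, 4.25 and 4.41. GstD5 was highest in M4, at 6.04, 6.37, 5.59 and 6.28, and lowest in M3. GstD10 was lowest in M4, at 7.23, 7.22, 7.14 and 7.11, and GstD2 was highest in M1, at 7.11, 7.12, 7.33 and 7.75. All 4 passed the F test (limma adjusted p 2.95e-06 for GstD4, 4.24e-05 for GstD5, 9.95e-05 for GstD10 and 0.000405 for GstD2). Among glycosyltransferases, Ugt49B1 was highest in M1 by 0.78 (SE 0.08; limma adjusted p 7.68e-06) and Ugt35B1 was lowest in M4, at 6.25, 6.74, 5.45 and 4.79 against 7.27 to 7.75 (difference -1.70, SE 0.20; limma adjusted p 0.00023).

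**Figure D3:**
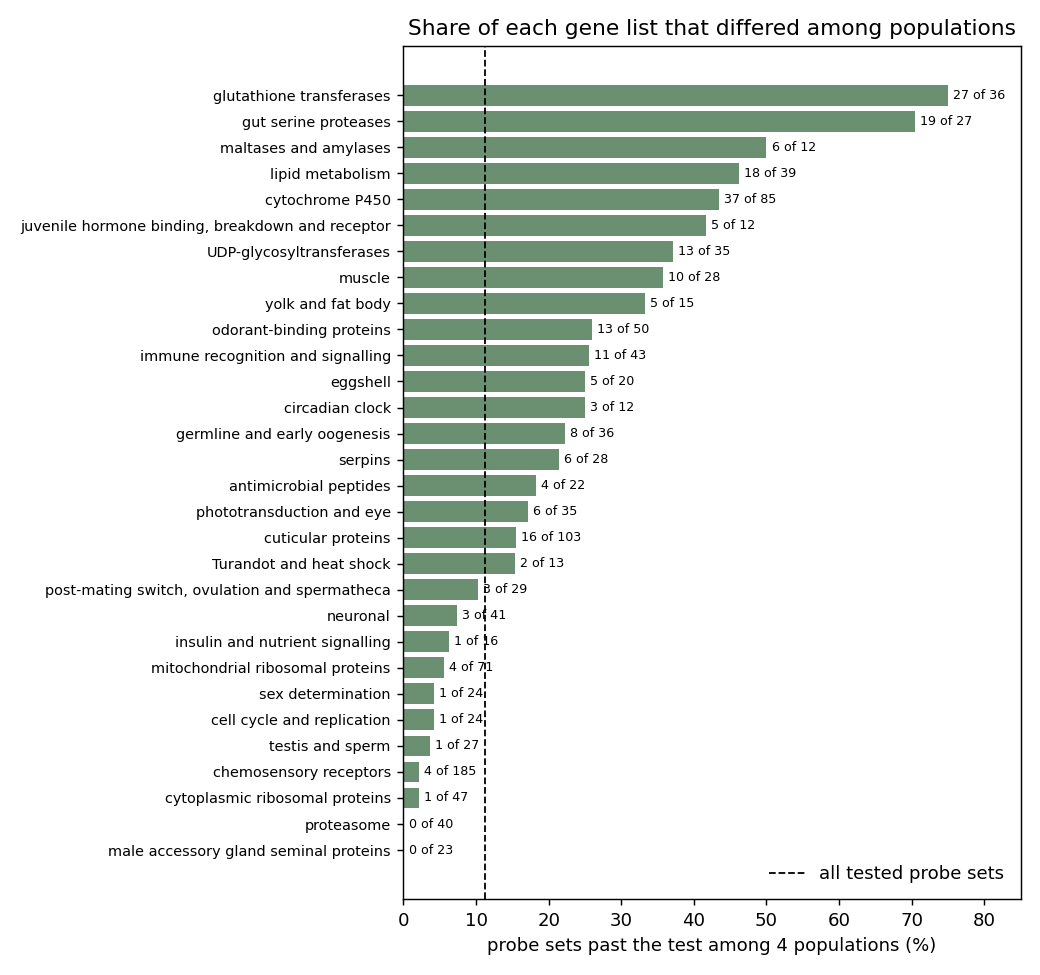
Percentage of the probe sets of each of 30 gene lists that passed the F test among the 4 monogamous populations (x axis), with the counts beside the bars. The dashed line marks the share of all tested probe sets, 11.3%; glutathione transferases reached 75% and proteasome genes 0%.

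Digestive enzymes formed the next group. Of 27 probe sets for serine proteases of the gut, 19 were called (70.4%; median gap 0.409), and of 12 for maltases and amylases, 6 were called (50%; median gap 0.561). Jon74E, a Jonah protease, read 10.03, 11.24, 9.0 and 10.93 in M4, and 11.75 or more in the other 12 arrays. The 4 M4 arrays were the lowest in each batch, but they spread over more than 2 log2 units, and M4 was lower by -2.96 in batch 1 and by -1.33 in batch 2 (both batches -2.14, SE 0.24; limma adjusted p 7.73e-05). Jon65Ai was lowest in M3, at 9.90, 9.35, 10.33 and 9.70 (difference -1.09, SE 0.13; limma adjusted p 9.38e-05). Jon99Fi was highest in M2, at 12.93, 12.84, 13.23 and 13.17, by 0.85 (SE 0.08; limma adjusted p 1.16e-05). Proteases outlying in M1, M2, M3 and M4 numbered 6, 4, 4 and 5.

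Mal-A6, a maltase, was low in M1, at 9.16, 9.02, 9.56 and 9.53. M2 arrays read 11.91, 11.59, 11.09 and 11.29, M3 arrays 11.91, 11.84, 11.71 and 11.70, and M4 arrays 10.56, 11.34, 11.04 and 10.83. No array of M1 reached those of the others, and M1 was lower by -2.08 (SE 0.14; 4.23-fold; limma adjusted p 3.29e-07). Mal-A1 was also lowest in M1, by -0.78 (SE 0.11; limma adjusted p 0.000299), while Mal-A8 was highest in M4, by 1.17 (SE 0.13; limma adjusted p 4.19e-06). The mean of the gut markers lay at 11.93 to 12.18 in M1, 12.07 to 12.24 in M2, 12.23 to 12.46 in M3 and 12.03 to 12.10 in M4, and 5 of the 6 measured markers were themselves called; its part in these results was not tested. In RNA of whole flies, fewer cells of a type and less RNA per cell cannot be told apart.

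Lipid genes were called at 18 of 39 probe sets (46.2%; median gap 0.248), GNBP3 among them, a glucan-binding recognition protein that also stands in the immune list. Fad2, the desaturase that makes the diene pheromones of the female cuticle, was low in M4, at 9.89, 10.79, 10.16 and 11.04. The other 12 arrays read 11.26 or more, and the difference was -1.23 (SE 0.14; limma adjusted p 5.77e-05). Npc2c, a sterol-binding protein gene, was low in M3, at 5.12, 5.58, 5.63 and 5.21, by -1.02 (SE 0.12; limma adjusted p 5.14e-05). Of 12 probe sets for juvenile hormone binding, breakdown and reception, 5 were called (41.7%), but 2 with batch left out of the model and 2 to 6 with any 1 array left out. Jhe, the esterase that inactivates juvenile hormone, was lowest in M4, at 5.26, 5.32, 5.29 and 5.19, by -0.67 (SE 0.12; limma adjusted p 0.00448).

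Antimicrobial peptide genes had wide gaps between populations, with a median of 0.645. Of 22 probe sets 4 were called (18.2%, beside 11.3% of all sets), and 7 without the first M1 array from own-population males. DptB (diptericin B) read 10.87, 12.82, 8.07 and 10.39 in M1, and 6.57 to 7.80 in 11 of the other 12 arrays, but 10.35 in 1 array of M4. M1 was higher by 3.29 (SE 0.63; limma adjusted p 0.0116), and its lowest array lay below the highest array of M4. Def (defensin) was lowest in M2, at 7.65, 7.90, 7.63 and 8.04, by -0.95 (SE 0.16; limma adjusted p 0.000991). Of 43 sets for immune recognition and signalling, 11 were called (25.6%), and 7 without the second array from own-population males of either M1 or M3, or without the second M2 array from promiscuous-line males. PGRP-SC2, an amidase that degrades bacterial peptidoglycan, was low in M1, at 8.03, 9.22, 9.08 and 8.97, against 10.15 to 10.74 in the other 12 arrays (difference -1.60, SE 0.14; limma adjusted p 7.88e-06).

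Serpins, inhibitors of serine proteases, were called at 6 of 28 probe sets (21.4%). Spn38F read 5.24, 6.17, 6.24 and 6.57 in M4, and 2.82 to 3.05 in all 8 arrays of M1 and M2. In M3 it read 2.94 and 3.04 in batch 1 and 5.0 and 4.13 in batch 2, so M3 resembled M1 and M2 in the first batch and lay between in the second. The values of M1 and M2 were at the level of male genes such as Acp26Aa (2.81) and EbpII (2.89), so the size of the difference may be a lower bound. As fitted, M4 was higher than the other 3 by 2.83 (SE 0.23; limma adjusted p 3e-06), and by 2.79 and 2.87 in the batches. M3 minus M1 was 0.83 (SE 0.29; limma adjusted p 0.112).

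Female reproductive lists differed in their share of calls. Of 29 probe sets for the post-mating switch, ovulation and spermatheca, 3 were called (10.3%), a share near the 11.3% of all probe sets. The eggshell, germline and yolk lists described below lay above it in the main fit. With batch left out, 2 of 20 eggshell and 3 of 36 germline sets were called, beside 1532 of all 18769 sets, so those 2 lists then lay near the share of all sets. SPR, the sex peptide receptor, read 7.27, 7.89, 7.73 and 7.90 in M1, 5.99, 5.73, 6.19 and 6.50 in M2, 6.37, 6.74, 6.52 and 7.03 in M3, and 7.11, 6.69, 6.96 and 6.96 in M4. M1 lay above all other arrays, and M3 overlapped with both M2 and M4. M1 was higher by 1.13 (SE 0.12; limma adjusted p 8.1e-06), and M2 was lower than M1 by -1.60 (SE 0.14; limma adjusted p 2.41e-06). A second SPR probe set read 3.0 to 3.07 in population means, below the lower quartile of all sets, and was not called (limma adjusted p 0.95).

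The other 2 called sets in that list were Send1 and Send2, proteases secreted by the spermatheca, the organ that stores sperm. Send1 was lowest in M3, at 6.40, 6.44, 6.27 and 6.63, overlapping with 6.62 to 7.18 in M4, and read 7.40 to 9.41 in M1 and M2 (M3 difference -1.35, SE 0.21; limma adjusted p 0.000119). Send2 was also lowest in M3, at 4.31, 4.14, 4.61 and 5.79. In M2 it was 4.40 and 4.50 after mating with own-population males and 8.25 and 9.65 after mating with promiscuous-line males, so M2 and M3 overlapped (M3 difference -2.94, SE 0.68; limma adjusted p 0.026). Send1 and Send2 are the whole spermatheca marker list, and its mean ran from 5.29 to 6.21 in M3 and from 6.37 to 8.87 in the other populations; the part of spermatheca content in these results was not tested.

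Of 20 eggshell probe sets 5 were called (25%), with a median gap of 0.888. The count was 2 with batch left out, 3 without the first array from promiscuous-line males of either M2 or M3, and 8 without the first M3 array from own-population males. The smallest p was at CG14187 (limma adjusted p 0.00221), lowest in M3 at 5.23, 5.48, 5.17 and 5.29, although M1 and M4 reached down to 5.27 and 5.0. Fcp3C, a follicle cell protein gene, was highest in M2 at 8.52, 8.46, 8.24 and 9.54, but M1 reached 8.72 and M4 8.45, so the groups overlapped (difference 1.19, SE 0.25; limma adjusted p 0.00536). Cp19, a chorion gene, read 12.35, 12.91, 13.39 and 13.22 in M2 and up to 12.81 elsewhere, so that M2 and M4 overlapped (difference 1.04, SE 0.24; limma adjusted p 0.0131). The mean of the ovary markers ran from 11.27 to 11.90 in M2, 10.64 to 11.41 in M1, 9.56 to 11.12 in M3 and 10.76 to 11.85 in M4, with 1 of 9 markers called; its part in the eggshell values was not tested.

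Germline and early oogenesis genes were called at 8 of 36 probe sets (22.2%), but at 3 with batch left out and at 3 to 11 with any 1 array left out. The smallest p was at rhi (rhino), a chromatin protein of the piRNA clusters in the female germline, which was near 8.7 in M1 and M4 and lower in M2 and M3. Its population means were 8.71 (SD 0.12, n = 4 arrays), 8.17 (SD 0.14, n = 4), 8.21 (SD 0.13, n = 4) and 8.75 (SD 0.09, n = 4) in the order M1 to M4 (limma adjusted p 8.38e-05). bam, which starts germline differentiation, was highest in M3 by 0.51 (SE 0.08; limma adjusted p 0.000679). tut, an RNA-binding partner of bam in the male germline, was high in M1, at 6.12, 6.33, 5.4 and 6.76, and within each batch the other 6 arrays were lower (difference 2.07, SE 0.17; limma adjusted p 1.77e-06). Among yolk and fat body genes 5 of 15 sets were called (33.3%), with fit, a secreted fat body factor of females, lowest in M4 by -0.32 (SE 0.03; limma adjusted p 6.53e-06). Lsp2, a storage protein gene, was also lowest in M4, at 11.67, 12.45, 12.48 and 11.93 (difference -0.91, SE 0.14; limma adjusted p 0.00109).

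Besides the post-mating list, 10 lists lay below the 11.3% of all probe sets. Cytoplasmic ribosomal proteins were called at 1 of 47 sets (2.13%; median gap 0.0584), the one being RpL27, higher in M4 by 0.21 (SE 0.03; limma adjusted p 0.00171); the count was 3 and 2 without the first M2 array from promiscuous-line males or the second from own-population males. Proteasome genes were called at 0 of 40 in limma (6 at an unadjusted p under 0.05; 1 called without the first M3 array from own-population males). Cell cycle and replication genes were called at 1 of 24, fzr, an activator of the anaphase-promoting complex, and at 2 without the second M4 array from own-population males. Mitochondrial ribosomal proteins were called at 4 of 71, of which mRpS5 was lowest in M3 by -0.32 (limma adjusted p 0.000275). Seminal proteins of the male accessory gland were called at 0 of 23 in limma (1 at an unadjusted p under 0.05; 1 called without the second array of M1 from own-population males or of M3 from promiscuous-line males). Testis genes were called at 1 of 27, mia, a testis-specific TAF, with a difference of 0.33 in M3 (limma adjusted p 0.00835). Chemosensory receptors were called at 4 of 185 (2.16%, and 2 sets with batch left out), of which Ir7c had the smallest limma adjusted p, at 0.00324. The mean level of that list was 3.61 to 3.65 in the 4 populations. This is under the lower quartile of all sets (3.83), and differences between dim sets are compressed. Neuronal genes were called at 3 of 41 (7.32%), the potassium channel gene Shal being lowest in M4 by -0.52 (limma adjusted p 3.44e-05). Insulin and nutrient genes gave 1 of 16 (6.25%), sug, with a limma adjusted p of 0.0393, and sex determination genes 1 of 24 (4.17%), the switch gene Sxl, with a limma adjusted p of 0.0486. The calls of sug and Sxl were lost when batch was left out of the model and in 8 and 13 of the 16 settings that left out 1 array, and 2 other probe sets of Sxl were not called. With any 1 array left out these lists had 0 to 2 and 0 to 3 calls. The plot of shares by list shows all 30.

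The remaining 6 lists lay above that share, but cuticular proteins (15.5%) and Turandot and heat shock genes (15.4%) lay near it. Among all sets with 1 gene, 1838 of 13647 were called. Muscle sets were called at 10 of 28 (35.7%; 16 without the second M4 array from own-population males), with Act79B, a muscle actin, highest in M4 by 0.42 (SE 0.05; limma adjusted p 5.34e-05). Odorant-binding proteins, small carriers abundant in the antenna and elsewhere, were called at 13 of 50 (26%), led by Obp44a, lowest in M2 by -0.43 (limma adjusted p 2.14e-06). Cuticular proteins were called at 16 of 103 (15.5%), with Cpr51A lowest in M1 by -0.59 (limma adjusted p 3.93e-06). Of 35 phototransduction and eye sets 6 were called (17.1%; 3 with batch left out), 3 of them for inaE, a lipase of the photoreceptor; its probe sets went apart, at 0.64 in M4 for the one with the smallest p and at -0.24 and -0.37 for the other called sets. Of 12 circadian clock sets 3 were called (25%; 1 with batch left out and 1 to 4 with any 1 array left out), Pdp1 being lowest in M4 by -0.59 (limma adjusted p 0.00683). Turandot and heat shock genes, which respond to stress, were called at 2 of 13 (15.4%; 1 without the second array of M1 from own-population males or the first of M1 or M3 from promiscuous-line males), TotF being higher in M3 by 0.29 (limma adjusted p 0.0152, and 0.0505 without the first M3 array from promiscuous-line males).

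A gene family outside the 30 lists was described after the values had been seen. The gene table gives 51 genes a synonym beginning with Dro, the naming of the ecdysteroid kinase-like family, whose founding member in the silkworm phosphorylates ecdysteroid hormones. Of 47 probe sets measured, 32 were called (68.1%), with a median gap of 0.589, beside 11.3% and 0.152 for all tested probe sets. Of the 47 sets, called or not, 32 belonged to genes on 3R, an arm that holds 2974 of the 11889 genes placed in order. CG10560 read 9.65, 9.92, 9.95 and 10.39 in M1, 7.79, 7.66, 7.58 and 7.87 in M2, 8.47, 8.22, 8.49 and 8.91 in M3, and 8.13, 8.04, 7.71 and 8.83 in M4, with M1 above all other arrays (difference 1.83, SE 0.13; limma adjusted p 4.64e-07). CG10562 was also highest in M1, at 9.69, 9.78, 9.69 and 9.83 against 8.49 to 9.11 (difference 0.94, SE 0.06; limma adjusted p 1e-07). CG10559 was highest in M1 as well, at 7.60, 7.33, 7.76 and 8.03, and lowest in M2, at 5.18, 5.14, 4.68 and 4.85 (M1 difference 2.01, SE 0.19; limma adjusted p 5.65e-06). Other members went elsewhere: CG13658 was lowest in M2 by -1.45 (SE 0.20), CG6908 lowest in M4 by -1.04 (SE 0.12) and CG16898, on 2R, lowest in M3 by -1.93 (SE 0.19). M1 was outlying at 11 of the 32 called sets, M2 at 8, M3 at 5 and M4 at 8. Neighbouring members of such a family are alike in sequence, and hybridisation of 1 member's RNA to another's probes was not tested.

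**Figure D4:**
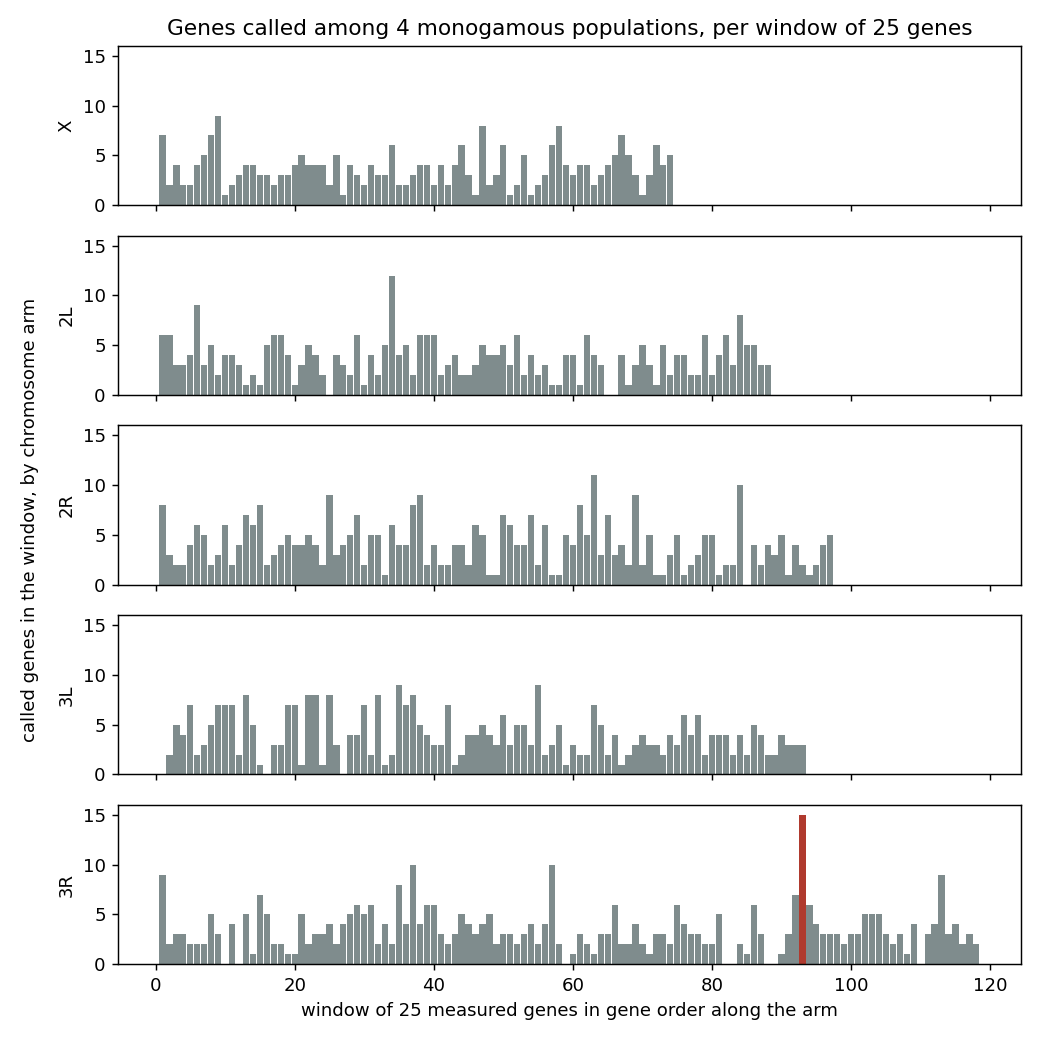
Number of genes past the F test among the 4 monogamous populations (y axis) in consecutive windows of 25 measured genes along 5 chromosome arms, in the gene order of the RefSeq table (x axis). The window in red, on 3R, holds 15 called genes of 25, the highest count; the next holds 12.

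The position of the called genes along the chromosomes was described, not tested. Of 11889 genes placed in order along the chromosomes, 1775 were called (14.9%). A called gene had a called neighbour in 37% of cases (657 genes), and a gene that was not called had one in 25.2%. Of 379 adjacent pairs of called genes, 121 (31.9%) had the same outlying population and 69 (18.2%) the same population and direction. Over all called sets M1, M2, M3 and M4 were outlying at 27.3%, 22%, 23.9% and 26.8%, so many unrelated pairs would match too. The share that unrelated pairs would give was not computed. The fullest window of 25 genes, from Nup37 to CG31099 on 3R, held 15 called genes, among them a run of 10 consecutive ones from CG13658 to CG10550, and the family named above fills much of it. A run of 7 covered delta-class transferases from GstD10 to GstD5, and a run of 5 on 2R held Idgf5, GstE10, GstE1, GstE2 and GstE3. The share of called genes was 14.5% on 2L, 16.1% on 2R, 16% on 3L, 13.6% on 3R and 14.8% on X. M1 was outlying at 37.7% of the called genes on 2R and at 20.1% to 26.6% on the other large arms.

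The promiscuous females give a second set of 4 populations with the same numbers, whose arrays are not shared with the monogamous ones. Among P1 to P4, 1760 of 18769 probe sets were called (9.38%), and the median gap over all sets was 0.138. Of the sets called among monogamous populations 831 were also called among promiscuous ones, which is 39.1% of the first list and 47.2% of the second. Of those 831, 98 (11.8%) had the same number highest and the same number lowest in both regimes, beside 9.03% of all tested sets. A test of whether the pattern over numbers differed between regimes, over all 32 arrays, called 1891 probe sets (10.1%), of which 1235 were among the 2127, or 58.1% of them. Of 51 named genes 44 passed that test and 37 were called among promiscuous populations. The interaction test reuses the monogamous arrays on which the 2127 sets and the named genes were picked. The 58.1% and the 44 of 51 are therefore no independent support.

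CG6765 shows a pattern that differed. Its means in monogamous females were 3.42 (SD 0.17), 8.81 (SD 0.10), 8.36 (SD 0.23) and 8.22 (SD 0.29) from M1 to M4, and in promiscuous females 8.13 (SD 0.25), 8.47 (SD 0.15), 6.64 (SD 0.60) and 7.03 (SD 0.40) from P1 to P4, each over 4 arrays. Number 1 was thus the lowest monogamous and not the lowest promiscuous population, and the limma adjusted p of the interaction was 4.62e-15. Cyp6g1 was high in M3, at 11.06 (SD 0.17, n = 4), whereas the promiscuous population means ran from 8.52 to 9.15 (interaction limma adjusted p 1.26e-10). CG3397 was low in M2 among monogamous populations, at 4.89, and low in P3 and P4, at 4.67 and 4.97, among promiscuous ones (interaction limma adjusted p 7.59e-12). vis, lectin-33A and CG42335 passed the test among monogamous populations and not among promiscuous ones (limma adjusted p 0.66, 0.772 and 0.26). All 3 passed the interaction test, which reuses the monogamous arrays they were picked on.

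Cyp6a2 kept 1 order closer to the same in both sets. It read 7.68, 6.59, 6.05 and 7.32 from M1 to M4 and 7.89, 7.31, 6.45 and 7.88 from P1 to P4, so that number 3 was lowest in both, and the interaction did not pass (limma adjusted p 0.197). Mal-A6 was lowest in number 1 and highest in number 3 in both sets, at 9.32 and 11.79 among monogamous and 8.65 and 11.04 among promiscuous females. Its interaction still passed (limma adjusted p 0.000514). Number 2 was 11.47 among monogamous and 9.21 among promiscuous females, and number 4 was 10.94 and 9.50. Which numbers made the interaction was not tested. SPR was lowest in number 2 in both sets, at 6.10 and 6.93, with an interaction p, adjusted in limma, of 0.00213.

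**Figure D5:**
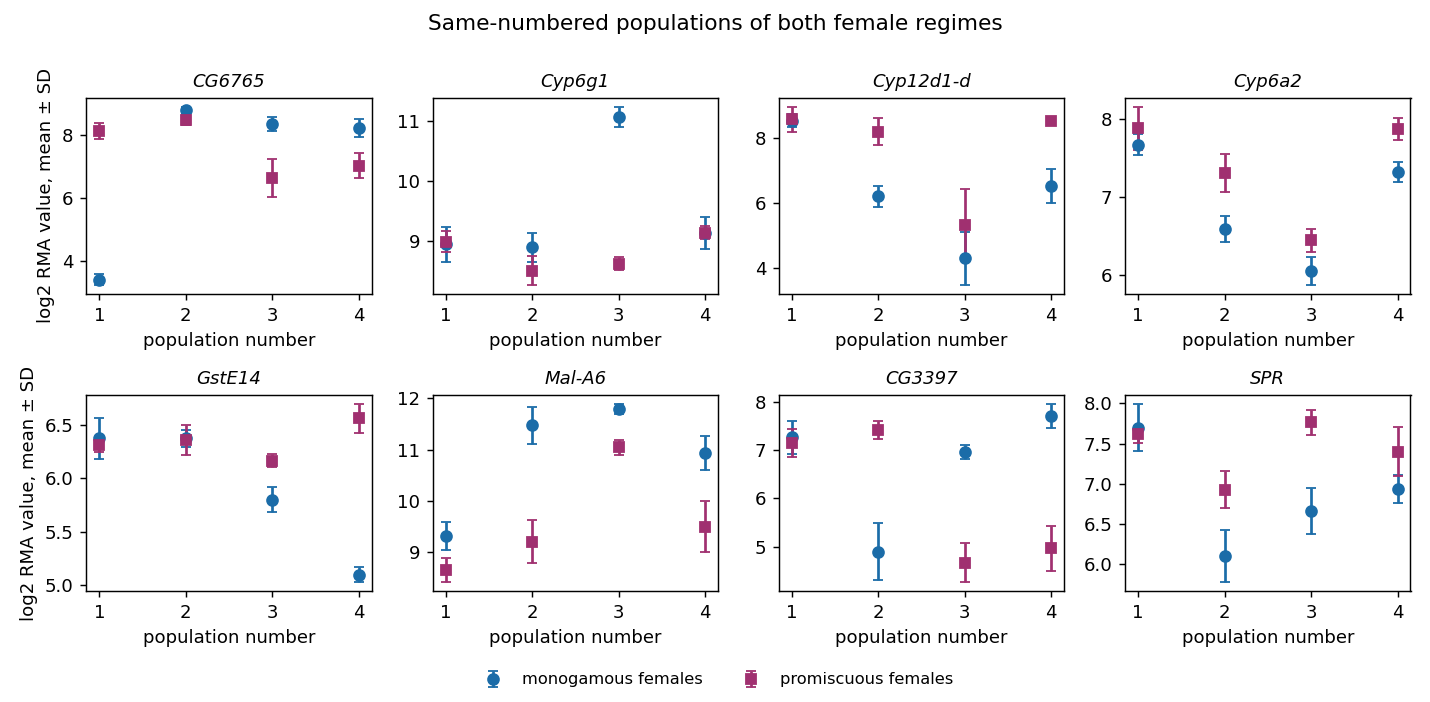
Population means of log2 values with SD over 4 arrays (y axis) against population number (x axis) for 8 genes, monogamous females as circles and promiscuous females as squares. CG6765 is at 3.42 in M1 and at 8.13 in P1, while Cyp6a2 is lowest at number 3 in both regimes.

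Each female population was measured after mating with males of both regimes, which allows the differences among populations to be compared between mates. A test of population by male regime among the 16 arrays, chosen after the data had been seen, called 6 probe sets (0.032%; smallest limma adjusted p 0.0237; 527 sets at an unadjusted p under 0.05), of which 2 were among the 2127. None of the 51 named genes passed it. This test had 7 residual degrees of freedom, and missing its threshold does not show that the mates made no difference. At CG6765 the M1 difference was -5.29 after own-population mates and -4.79 after promiscuous-line mates, and at Cyp6g1 the M3 difference was 2.06 after both. At Jon74E the M4 difference was -1.82 and -2.47, and at Mal-A6 the M1 difference was -2.43 and -1.73.

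Genes with more than 1 probe set give a check of single values. There were 1094 such genes, and 208 had a called set. Another set of the same gene was also called in 44 of them (21.2%), 18 with the same outlying population and direction. Of all tested sets 11.3% were called, but a gene can have several other sets, so the 2 shares are not on the same basis. In most of the 208 genes no other set was called. All other sets had the same sign in 113 (54.3%), and the share that unrelated sets would give was not computed. Sets of a gene can lie in different exons or transcripts, and whether sequence differences under the probes contribute was not tested.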

How the data were processed

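RNA of whole mated females was hybridised to Affymetrix Drosophila 2 arrays, one array per sample, per the labels. The deposited values are log2 intensities that the authors made with RMA and affy (per the submitters' processing notes; versions not given). Because RMA gives every array one distribution of intensities, a shift common to most genes cannot be seen, and differences between dim probe sets are compressed. No further normalization was applied. Of 18952 probe sets, 183 control sets were left out and 18769 were tested. The platform annotation, which is old, gave 13647 sets 1 gene, 402 several and 4720 none; 13544 sets matched the RefSeq gene table (Release 6 plus ISO1 MT), which gave gene order and chromosome arms. The files hold no read or spot depth, so the number of arrays limits the precision.

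Differences were tested in R 4.3.3 with limma 3.58.1 (lmFit, eBayes with an intensity trend; population, male regime and batch as terms; 10 residual degrees of freedom), with a moderated F test over M1 to M4, the 6 pairs, and Benjamini-Hochberg adjustment over all sets at 0.05. The pattern over numbers was tested as a regime by number interaction over all 32 arrays. The scripts were tested on simulated data. SE is that of the fitted contrast, SD that of 4 arrays. Batch and replicate number are 1 label, named in the labels, and entered as the block; the deviations of the batches from the cross means correlated between crosses at a median r of 0.2 (-0.0583 to 0.358 over 28 pairs of crosses).

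Named genes, 1 probe set each by smallest F p, were the 8 with the smallest F p, for each population the 3 highest and the 3 lowest against the other 3 among called genes separated in each batch, and the member of each list with the smallest F p past the threshold; other called list members named here were chosen after their values were seen. The arrays compared and the gene lists were chosen with earlier results of these data known. Lists were described by counts and medians and not tested. Alternatives were batch or male regime left out, each batch or mate alone, other filters and normalizations, the cross as a random block, and each array or population left out.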

Additional observations from a re-analysis of the deposited data

Results flagged for a closer look

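In 204 groups of 4 arrays (51 named genes in 4 populations), 9 had 1 array far from the other 3 by Dixon's gap, where about 10 would be expected at 1 in 20. CG32833 read 6.30 in 1 M1 array (promiscuous-line mates, batch 1) and 6.05 to 6.07 in the others. CG31955 read 7.60 in 1 M3 array (own-population mates, batch 1) and 8.01 to 8.08 in the others. CG4250 read 7.05 in 1 M1 array (own-population mates, batch 2) with the others at 6.59, and 6.82 in 1 M3 array (promiscuous-line mates, batch 1) with the others at 6.62 to 6.63. GstE14 read 5.98 in 1 M3 array (own-population mates, batch 2) and 5.72 to 5.76 in the others. Cyp12d1-d read 5.73 in 1 M2 array (promiscuous-line mates, batch 1) and 6.32 to 6.43 in the others. Cyp6g1 read 9.54 in 1 M4 array (own-population mates, batch 2) and 9.0 to 9.01 in the others. fit read 13.66 in 1 M1 array (promiscuous-line mates, batch 2) and 13.77 to 13.80 in the others. rhi read 8.61 in 1 M4 array (promiscuous-line mates, batch 1) and 8.78 to 8.81 in the others. None of the 9 gaps is as large as the difference for which its gene is named.

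The pattern over population numbers differed between monogamous and promiscuous females at 1891 probe sets by the interaction test in limma. The numbers name separate populations in each regime.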

How the results depend on the processing

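The F test count of 2127 was 1532 without the replicate block (batch left out), and all 1532 were among the 2127; it was 2141 with male regime left out, 1688 with population by male regime terms added, 2337 with the dimmest 40% of probe sets left out, 1800 with no intensity trend, 2159 after quantile normalization again, 2111 after centring arrays on their medians, 2644 on cross means and 2526 with all 32 arrays in 1 fit. Without the block M3 minus M2 was 602; none of the other pair counts, nor the interaction (1462), moved by over 1.5 times with it. Of 51 named genes Ir7c, CG14187, sug and Sxl lost their call without it (limma adjusted p 0.0521, 0.0526, 0.0724 and 0.0585). The cross as a random block (consensus correlation -0.18) gave 3418 for the F test and 1345, 1725, 1584, 1492 and 1386 for M2 minus M1, M3 minus M1, M3 minus M2, M4 minus M2 and M4 minus M3; the cause was not tested. Settings with 8 arrays called fewer. Batch 1 alone gave 1041 (891 shared), with 377, 531, 565, 431, 404 and 437 for M2 minus M1, M3 minus M1, M4 minus M1, M3 minus M2, M4 minus M2 and M4 minus M3, and 599 for the interaction. Batch 2 alone gave 781 (696 shared), with 287, 394, 363, 255, 361 and 325, and 782 for the interaction. Own-population males alone gave 344 (337 shared), with 147, 194, 174, 87, 133 and 97. Promiscuous-line males alone gave 963 (872 shared), with 382, 421, 596, 405, 496 and 344. Leaving out M4 gave 1402, and leaving out another population 1466 to 1521. With 1 array left out, the F test gave 1706 to 2252, M2 minus M1 569 to 921, M3 minus M1 727 to 1109, M4 minus M1 691 to 1065, M3 minus M2 539 to 990, M4 minus M2 643 to 966, M4 minus M3 543 to 863 and the interaction 1694 to 1894. No named gene reversed its direction in any of these settings. The named genes were picked on these same arrays, and some for separation in each batch, which fixed their direction there. Their direction and the counts that follow are therefore no independent support. Of 51, 45 stayed past the threshold in batch 1 alone, 42 in batch 2 alone, 33 with own-population males alone and 44 with promiscuous-line males alone. Probe sets near background have compressed differences, and the files give no detection call.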

Other observations

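Some called list members not described above had large gaps. Cyp4d21, a P450, read 3.64, 3.83, 3.82 and 4.03 in M3 and 5.19 to 7.17 in the other 12 arrays (difference -2.01, SE 0.25; limma adjusted p 0.00023), and it was called among promiscuous populations as well (limma adjusted p 2.17e-06). Cpr92F, a cuticular protein gene, was lowest in M1, at 5.62, 6.36, 7.25 and 7.08, and M2 reached down to 6.64 (difference -1.53, SE 0.25; limma adjusted p 0.000651). ninaD, a scavenger receptor that takes up carotenoids, was lowest in M2, at 7.64, 7.56, 7.41 and 7.35, against 7.79 or more elsewhere (difference -1.01, SE 0.17; limma adjusted p 0.000847). Obp19c was lowest in M3, but by mate: it read 7.91 and 7.32 after own-population males and 5.08 and 5.33 after promiscuous-line males (difference -1.62, SE 0.40; limma adjusted p 0.0335). TotC was highest in M1, at 7.97, 10.80, 9.80 and 8.30, and M4 reached 8.21 (difference 1.75, SE 0.36; limma adjusted p 0.0214). These genes were chosen after their values were seen.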
